A study of Homo sapiens with 9 samples.

Results

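The genes described here are 10 cancer stem cell surface markers and drug pumps, out of 21743 genes named on the array. The 5 surface markers were CD44, PROM1 (CD133), CD24, ALCAM (CD166) and NT5E (CD73), and the 5 pumps were ABCG2, ABCB6, ABCC1, ABCC2 and ABCC3. They were chosen by name, and every non-control probe whose RefSeq transcript belongs to a member was used, which gave 13 probes, 7 for the surface markers and 6 for the pumps. The RNA data are 9 Agilent arrays of the single-colour kind, with 3 arrays for each of OSK-A549-Colony, OSK-A549-SN and parental A549. A549 cells are an established line from a human lung adenocarcinoma, and both other groups came from A549 cells that had received OCT3/4, SOX2 and KLF4 by retrovirus. OSK-A549-Colony cells were those that stayed on the dish in trypsin, and OSK-A549-SN cells were those that came off early. The transduced cells were not single clones, since several colonies of a dish were passaged, and the study's methods name 3 independent transduction experiments as the source of the RNA. The labels give passage 98 or 99 for parental A549 and a later passage for every transduced sample, so passage and transduction cannot be told apart.

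ATP-binding cassette (ABC) transporters use ATP to move substrates across membranes. ABCG2 and the ABCC pumps export drugs and their conjugates, and cells that pump out dyes or drugs have been used to enrich for stem-like tumour cells. CD44, PROM1, CD24, ALCAM and NT5E are surface proteins used to sort such cells. In A549 the NRF2 pathway is constitutively active, and ABCC2, ABCC3 and the enzymes of glutathione conjugation are among its known targets.

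Levels are log2 intensities minus the 75th percentile of the array, which lay between 217.5 and 270.6 on the linear scale. Each probe has its own binding strength, so member levels were compared only between groups, and the sum and the brightest probe of a marker list are descriptions. Of the 13 probes, 12 were well above background on all 9 arrays and 1, the PROM1 probe, was on none. PROM1 intensity lay between 2.38 and 5.87, while an intensity had to reach 7.91 to 13.5, depending on the array, to be well above background, so no difference is given for it. RNA of 9 of the 10 genes was thus measured in every group, and PROM1 was not well above background in parental or in transduced cells.

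**Figure D1:**
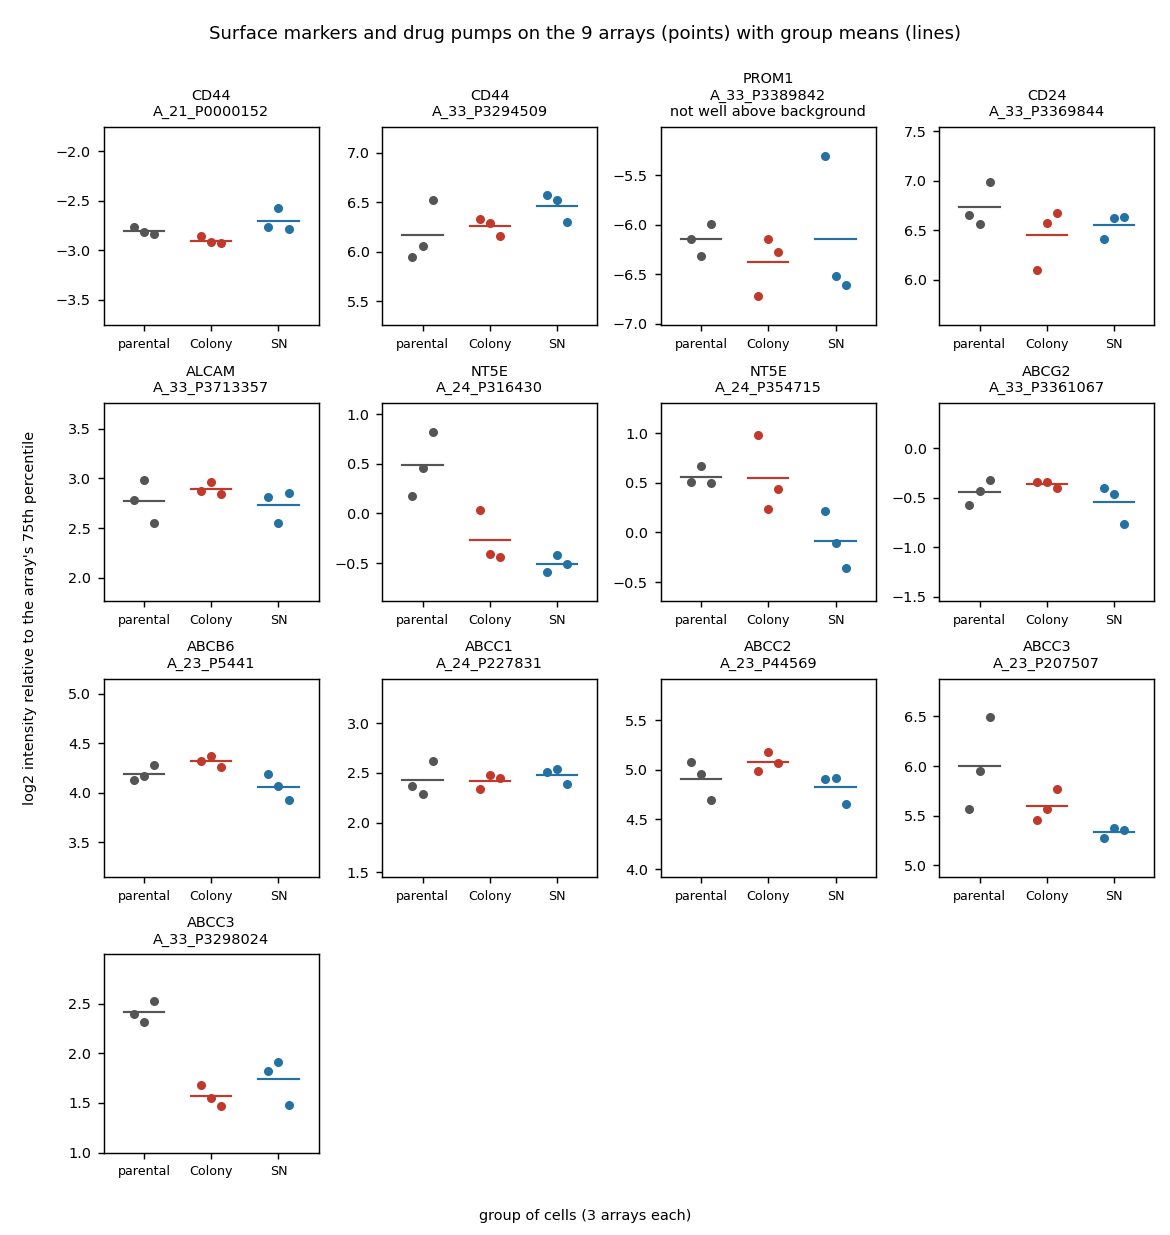
Log2 intensity relative to the array's 75th percentile for the 13 member probes, with 1 point per array (3 per group) and a line at each group mean, every panel on its own axis of at least 2 log2 units. The parental points of ABCC3 probe A_33_P3298024 lie between 2.32 and 2.53, above all 6 points of the transduced cells, which lie between 1.47 and 1.92.

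Between OSK-A549-Colony and parental A549, no member passed an adjusted p under 0.05 with a fold change over 2. By limma, 0 of 12 member probes did so, against 1143 of the 30869 probes tested, or 3.70%. At an adjusted p under 0.05 with no fold limit, 1 member probe passed, in ABCC3, against 9.02% of all probes tested. At an unadjusted p under 0.05, 2 member probes passed, in ABCC3 and NT5E, against 30.1%. The groups did not overlap for 3 member probes, in ABCC3, NT5E and CD44, against 41.6% of all probes. The members thus stood near or below the background share on each count. The median log2 difference of the 12 probes was -0.005, beside -0.03 over all probes tested, with 5 higher and 7 lower.

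ABCC3, an export pump for glucuronide and glutathione conjugates and bile salts, had the largest difference in this comparison. Its probe A_33_P3298024, designed on transcript NM_001144070, read 2.40, 2.32 and 2.53 in parental A549. The same probe read 1.68, 1.55 and 1.47 in OSK-A549-Colony and 1.82, 1.92 and 1.48 in OSK-A549-SN. All 6 arrays of transduced cells were below all 3 parental arrays, and the arrays of the 2 transduced groups overlapped. The group means were 2.41 ± 0.11 (SD, n = 3) for parental A549, 1.74 ± 0.23 (SD, n = 3) for OSK-A549-SN and 1.57 ± 0.11 (SD, n = 3) for OSK-A549-Colony. OSK-A549-Colony was lower than parental A549 by 1.80-fold, a log2 difference of -0.84 (95% interval -1.12 to -0.57, adjusted p = 0.0232 from limma, lower in 3 of 3 arrays). Of the probes tested, 15.7% had a larger absolute difference. The adjusted p ranged from 0.00598 to 0.125 over 13 alternatives and stayed under 0.05 in 7 of them. It was 0.0715 without parental A549 replicate 2, and 0.0675, 0.113 and 0.0963 without OSK-A549-Colony replicate 1, 2 or 3. It was 0.0511 with no filter on dim probes and 0.125 with replicate number as a block.

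The other ABCC3 probe gave a different answer. A_23_P207507, on transcript NM_003786, read 5.56, 5.95 and 6.49 in parental A549. It read 5.45, 5.57 and 5.77 in OSK-A549-Colony and 5.27, 5.38 and 5.36 in OSK-A549-SN. The parental arrays were spread widely and overlapped those of OSK-A549-Colony, while all 3 OSK-A549-SN arrays lay below every other array. The group means were 6.00 ± 0.47 (SD, n = 3) for parental A549, 5.60 ± 0.16 (SD, n = 3) for OSK-A549-Colony and 5.33 ± 0.06 (SD, n = 3) for OSK-A549-SN. The log2 difference of OSK-A549-Colony from parental A549 was -0.40 (95% interval -1.03 to 0.23, adjusted p = 0.337 from limma). Over the alternatives this probe gave -0.62 to -0.16 for OSK-A549-Colony against parental A549 and -0.89 to -0.42 for OSK-A549-SN, the ends being fits without parental A549 replicate 1 or 3. The 2 probes thus put the means of the transduced groups in opposite order, by differences that did not pass, and whether the transcripts or the probes differ was not tested. A gene was counted by its probe with the highest mean, and ABCC3 is therefore not counted as passing in any comparison.

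NT5E is the ectoenzyme that turns extracellular AMP into adenosine, and both of its probes were designed on NM_002526. Probe A_24_P316430 read 0.18, 0.46 and 0.83 in parental A549. It read 0.03, -0.41 and -0.44 in OSK-A549-Colony and -0.59, -0.42 and -0.51 in OSK-A549-SN. All parental arrays were above all arrays of transduced cells, and the transduced groups overlapped. The group means were 0.49 ± 0.32 (SD, n = 3), -0.27 ± 0.26 (SD, n = 3) and -0.51 ± 0.09 (SD, n = 3) in the order parental A549, OSK-A549-Colony, OSK-A549-SN. Probe A_24_P354715 read 0.51, 0.67 and 0.50 in parental A549, 0.98, 0.24 and 0.44 in OSK-A549-Colony and 0.22, -0.10 and -0.36 in OSK-A549-SN. By this probe OSK-A549-Colony spanned the parental values, and OSK-A549-SN was below both. The log2 difference of OSK-A549-Colony from parental A549 was -0.76 by the former probe (95% interval -1.30 to -0.21, adjusted p = 0.0859 from limma) and -0.006 by the latter (95% interval -0.53 to 0.51, adjusted p = 0.986). The probes of NT5E disagreed in this comparison, and neither passed.

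The promoters of 8 member genes (all but ABCC1 and ABCC3), 17 in all, were found in a RefSeq table on build GRCh38.p14, and that of NT5E is shown because both NT5E probes were lower in OSK-A549-SN. The run is on the plus strand and covers 250 bases before to 50 after the start, with matches of the searched motifs in capitals. Motifs were searched on both strands of 35116 promoters of 300 bases.
NT5E, chr6:85449833-85450132, plus strand: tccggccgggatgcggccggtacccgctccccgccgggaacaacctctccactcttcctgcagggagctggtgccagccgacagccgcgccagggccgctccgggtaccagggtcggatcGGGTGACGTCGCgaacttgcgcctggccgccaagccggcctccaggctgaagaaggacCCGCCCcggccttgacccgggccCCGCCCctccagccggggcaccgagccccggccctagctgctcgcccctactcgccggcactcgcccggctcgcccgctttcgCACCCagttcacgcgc
The window held 2 matches of the GC box (GGGCGG), a letter pattern found in 44.95% of all promoters, at 72 and 49 bases before the start. It held 2 matches of the CACCC box, known from KLF factors (59.87% of promoters), at 130 bases before the start and from base 35 after it. The former overlaps the single match of TGACNNNGC, the antioxidant response core (13.35% of promoters), at 127 bases before the start. The octamer ATGCAAAT (1.774% of promoters) and the SOX patterns ACAATG (10.78%) and ACAAAG (16.07%) were not in this window. Some of the 17 member windows overlap, as in ABCG2 and CD24, so counts over them are not given. A match of letters is a description and does not show that a factor binds there.

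The other surface markers and pumps differed little between OSK-A549-Colony and parental A549. Over the 8 remaining probes the log2 difference lay between -0.29 (CD24) and 0.17 (ABCC2), with adjusted p between 0.387 and 0.989. Their 95% intervals reached from -0.79 to 0.52, so a decrease of up to 1.72-fold or an increase of up to 1.44-fold is compatible with the data. CD44, the hyaluronan receptor, was at 6.17 ± 0.30 (SD, n = 3) for parental A549, 6.26 ± 0.09 (SD, n = 3) for OSK-A549-Colony and 6.46 ± 0.15 (SD, n = 3) for OSK-A549-SN by probe A_33_P3294509. Its other probe, A_21_P0000152 on NM_001202557, differed by -0.10 (95% interval -0.32 to 0.12, adjusted p = 0.495 from limma) between OSK-A549-Colony and parental A549, and the values of those 2 groups did not overlap. CD24, a glycosylphosphatidylinositol-anchored sialoglycoprotein, was at 6.74 ± 0.22 (SD, n = 3), 6.45 ± 0.31 (SD, n = 3) and 6.56 ± 0.13 (SD, n = 3) for the same order of groups. CD24 has near-identical processed copies in the genome, so its probe may read more than 1 locus. ABCG2, the breast cancer resistance protein, lay between -0.76 and -0.32 on all 9 arrays. ABCC1, a pump for glutathione conjugates, lay between 2.29 and 2.62 on all 9 arrays, and its 3 groups overlapped.

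**Figure D2:**
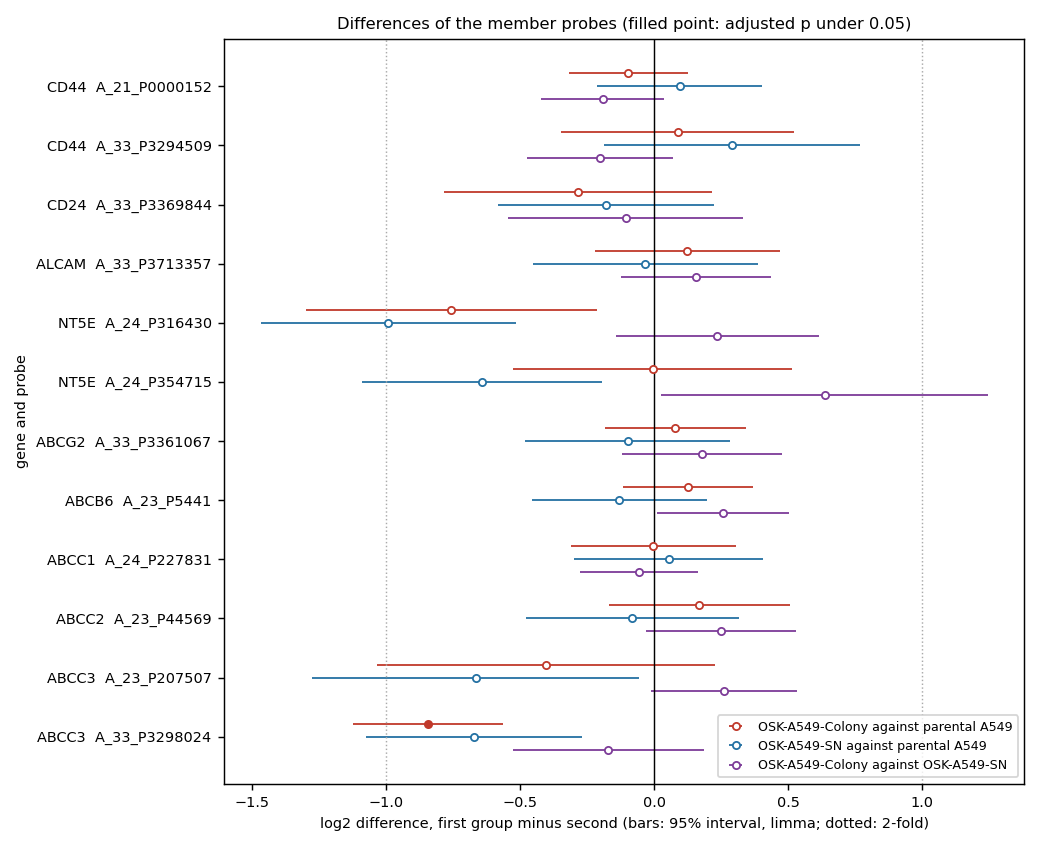
Log2 difference (first group minus second) of the 12 measured member probes in 3 comparisons, with bars for the 95% interval from limma and dotted lines at a 2-fold difference. The only filled point, an adjusted p under 0.05, is ABCC3 probe A_33_P3298024 at -0.84, and for OSK-A549-Colony against parental A549 the 2 probes of NT5E and of ABCC3 lie apart.

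Between OSK-A549-SN and parental A549, the same 2 genes were at the low end. By limma, 0 of 12 member probes passed an adjusted p under 0.05 with a fold change over 2, against 498 of 32223 probes tested, or 1.55%. None passed without the fold limit either, against 1.82%, and 4 passed an unadjusted p under 0.05, the probes of ABCC3 and NT5E, against 21.6%. The same 4 probes had groups without overlap, against 32.1% of all probes. The 4 log2 differences were -0.99 (95% interval -1.47 to -0.52, adjusted p = 0.0684 from limma) and -0.64 (-1.09 to -0.19, adjusted p = 0.128) for NT5E probes A_24_P316430 and A_24_P354715. They were -0.67 (-1.08 to -0.27, adjusted p = 0.0986) and -0.67 (-1.28 to -0.06, adjusted p = 0.202) for ABCC3 probes A_33_P3298024 and A_23_P207507. In this comparison both probes of each gene lay on the same side, at 1.99-fold and 1.56-fold lower for NT5E and 1.59-fold lower for ABCC3 by either probe. With all 9 arrays in 1 fit, A_24_P316430 and A_33_P3298024 had an adjusted p of 0.0232 and 0.0278. Over all alternatives the adjusted p ranged from 0.0205 to 0.221 for the former and from 0.0264 to 0.256 for the latter. OSK-A549-SN replicate 3 was alone on its slide, and without it the 2 differences were -0.99 and -0.54 (adjusted p = 0.135 and 0.15). With slide as a block that array has no part in the difference, so the 2 values were necessarily -0.99 and -0.54 as well (adjusted p = 0.143 and 0.161). The other 8 probes differed by -0.18 to 0.29, with adjusted p between 0.43 and 0.922. The median over the 12 probes was -0.12, beside 0.08 over all probes, with 3 higher and 9 lower. This comparison uses the same parental arrays as that of OSK-A549-Colony, so the values of the 2 are not independent.

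Comparing OSK-A549-Colony with OSK-A549-SN, no probe of any gene passed by limma with an adjusted p under 0.05, with or without a fold limit (0 of 31748 tested, or 0%). At an unadjusted p under 0.05, 2 of 12 member probes passed, in NT5E and ABCB6, against 19.5% of all probes. Groups did not overlap for 5 member probes, against 30.8%. NT5E probe A_24_P354715 was higher in OSK-A549-Colony by a log2 difference of 0.64 (95% interval 0.03 to 1.25, adjusted p = 0.245 from limma), and A_24_P316430 by 0.24 (-0.14 to 0.62, adjusted p = 0.426). ABCB6, a transporter linked to porphyrins, read 4.32, 4.37 and 4.26 in OSK-A549-Colony and 4.19, 4.07 and 3.93 in OSK-A549-SN. The 2 groups of ABCB6 values did not overlap, and parental A549 lay across them at 4.13, 4.17 and 4.28. Its log2 difference was 0.26 (95% interval 0.01 to 0.50, adjusted p = 0.246 from limma). ABCC2, the apical pump for conjugates, differed by 0.25 (-0.03 to 0.53, adjusted p = 0.295), and ABCC3 by 0.26 (A_23_P207507, adjusted p = 0.271) and -0.17 (A_33_P3298024, adjusted p = 0.522). The median over the 12 probes was 0.17, beside -0.06 over all probes, with 7 higher and 5 lower. Neither CD44 probe, at -0.20 and -0.19, nor ABCG2, at 0.18, had an adjusted p under 0.317.

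**Figure D3:**
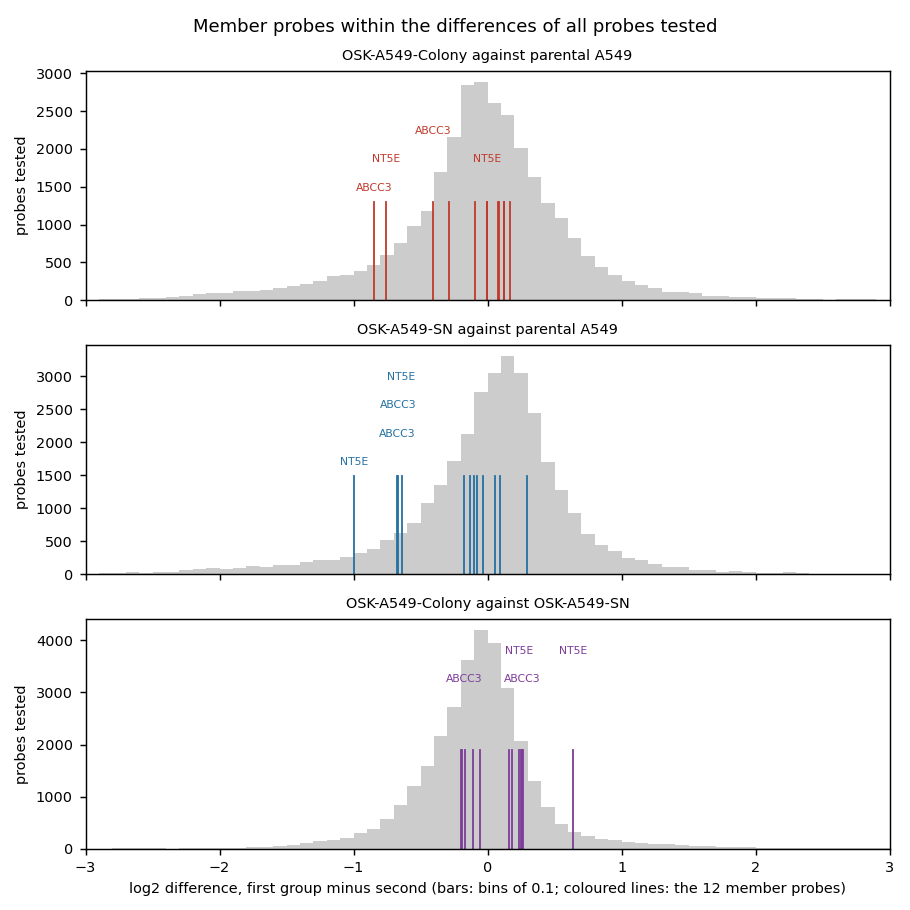
Number of probes tested (grey bars, bins of 0.1) by log2 difference in the 3 comparisons, drawn from -3 to 3, with a coloured line at each of the 12 member probes and names for ABCC3 and NT5E. Most members sit inside the bulk of all probes, and the lowest lines are those of ABCC3 and NT5E in the comparisons with parental A549.

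Across the 3 groups together, limma's F test passed 2 of 12 member probes at an adjusted p under 0.05, against 3778 of 33087 probes, or 11.4%. They were ABCC3 A_33_P3298024 (adjusted p = 0.0208) and NT5E A_24_P316430 (adjusted p = 0.0335). At an unadjusted p under 0.05, 4 passed, the probes of ABCC3 and NT5E, against 30.5%. Counted by the probe with the highest mean, 0 of 9 measured member genes passed after adjustment and 2 did before it. The NT5E probe lost its place under 9 alternatives, 7 of them fits without 1 array. Its adjusted p was 0.099 and 0.0537 without parental A549 replicate 2 or 3, 0.078 and 0.0725 without OSK-A549-Colony replicate 2 or 3, and 0.0786, 0.0718 and 0.0583 without OSK-A549-SN replicate 1, 2 or 3. The ABCC3 probe lost it without parental A549 replicate 2 (0.0613) or when OSK-A549-Colony replicate 2 (0.0662) or 3 (0.0619) was left out. Both lost it with replicate number as a block, at 0.0616 for ABCC3 and 0.0944 for NT5E, and NT5E with no filter on dim probes, at 0.0571. Over all alternatives the adjusted p ranged from 0.00325 to 0.0662 for ABCC3 and from 0.00831 to 0.099 for NT5E.

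For the probes of these 2 genes with the widest range between group means, the named genes with the most similar pattern over the 9 arrays were found among 18632 probes well above background on every array. For NT5E A_24_P316430 they were CYP51A1 (Pearson's r = 0.984), DCBLD1 (0.981) and MCF2L (0.972), each over 9 arrays. For ABCC3 A_33_P3298024 they were PIGZ (0.995), PMS2 (0.991) and ACOT13 (0.990). The 9 points share arrays and fall into 3 groups, so these values only describe likeness.

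The pumps among the members belong to a larger family, and the other ABC transporters were described from lists by subfamily. Of 43 other ABC genes, 42 were on the array and 31 were tested for OSK-A549-Colony against parental A549. By limma 1 was called higher and 4 lower, against 2.08% and 1.81% of 16422 named genes, each counted by its probe with the highest mean. The median log2 difference of the 31 genes was -0.15, beside -0.03 over all probes, with 15 higher and 16 lower, and 16 had an unadjusted p under 0.05, against 30.1% of all probes. In the subfamily of ABCC1 to ABCC3, the gene called lower was ABCC6, a transporter known from liver and kidney. It read 2.15, 2.07 and 2.71 in parental A549, 0.60, 0.65 and 0.51 in OSK-A549-Colony and 0.87, 1.03 and 0.79 in OSK-A549-SN. The parental arrays were clearly above the others with no overlap. The log2 difference of OSK-A549-Colony was -1.72 (adjusted p = 0.0191 from limma, standard error 0.19), and the other 3 ABCC6 probes were called as well, at -1.50, -1.47 and -1.60. ABCC6 has near-identical pseudogene copies, so its probes may read more than that gene.

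In subfamily B, ABCB4, a phospholipid floppase, was lower in OSK-A549-Colony (log2 difference -1.37, adjusted p = 0.0266 from limma, standard error 0.20). TAP2, which carries peptides for antigen presentation, was higher (1.05, adjusted p = 0.0155, standard error 0.10). In subfamily G, which holds ABCG2, ABCG1, a sterol transporter, was lower (-1.18, adjusted p = 0.0333, standard error 0.20). ABCG4 was at background on every OSK-A549-Colony array and lower by at least 3.52-fold (adjusted p = 0.0153). No gene of subfamilies A or D to F was called, and the largest differences there were those of ABCE1 (1.02, adjusted p = 0.0947), ABCA2 (-0.96, adjusted p = 0.0729) and ABCA12 (0.95, adjusted p = 0.0367). Over 13 alternatives the adjusted p of ABCE1 was 0.0407 to 0.242 and under 0.05 in 4, that of ABCA2 0.0297 to 0.208 (3) and that of ABCA12 0.0127 to 0.142 (5). In subfamilies D to F 1 gene was called with all 9 arrays in 1 fit, and up to 1 without 1 array, as in subfamily A. The calls of ABCB4, TAP2, ABCC6, ABCG1 and ABCG4 were all lost in some fits without 1 array, by the adjusted p. Each difference stayed over 2-fold without any 1 array, and far fewer probes of any gene were called in the fits that lost these calls. Without parental A549 replicate 2 the 5 adjusted p values were 0.0609 to 0.0992. Without OSK-A549-Colony replicate 1, 2 or 3 they were 0.0534 to 0.0971, 0.0932 to 0.13 and 0.0595 to 0.118. With normexp background correction only ABCC6 stayed called, since the log2 difference was -0.59 for ABCB4, 0.90 for TAP2, -0.77 for ABCG1 and -0.44 for ABCG4, all under 2-fold. With replicate number as a block all 5 calls were lost (0.118 to 0.122), and with no filter on dim probes that of ABCG1 was (0.0613).

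**Figure D4:**
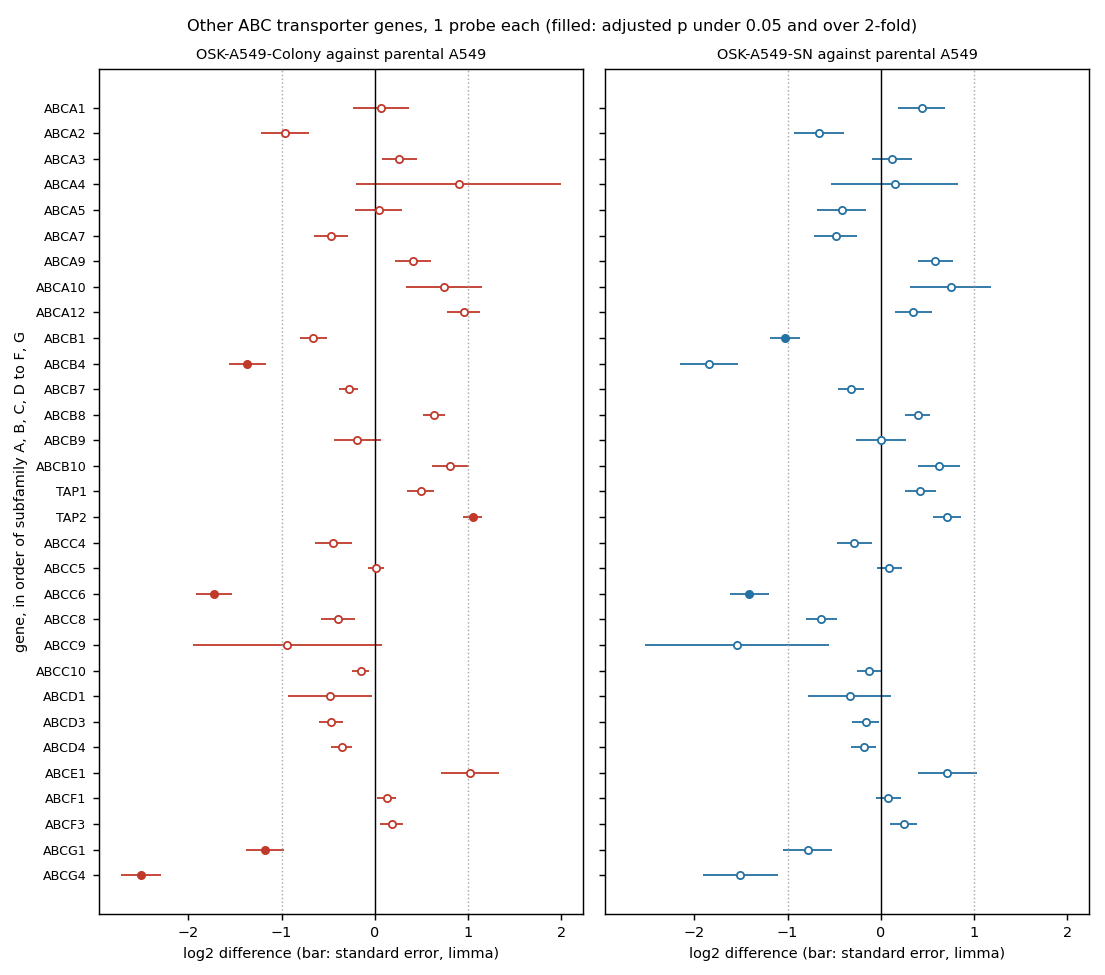
Log2 difference from parental A549 of the other ABC transporter genes that were tested, by subfamily, for OSK-A549-Colony (left) and OSK-A549-SN (right), with bars for the standard error and dotted lines at 2-fold. ABCC6 is filled, meaning called, in both panels, at -1.72 and -1.41.

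Between OSK-A549-SN and parental A549, 0 of 31 other ABC genes were called higher and 2 lower, against 0.757% and 0.876% of 16777 named genes, and 11 had an unadjusted p under 0.05, against 21.6% of all probes. The largest difference was that of ABCB4 (-1.84, adjusted p = 0.0533 from limma, standard error 0.31), which was not called. Its adjusted p was 0.0108 to 0.18 over 14 alternatives and under 0.05 in 3 of them. The genes called were ABCC6 (-1.41, adjusted p = 0.0432 from limma, standard error 0.21) and ABCB1 (-1.03, adjusted p = 0.0462, standard error 0.16), the P-glycoprotein pump. ABCB1 read -0.06, -0.06 and -0.47 in parental A549, -0.86, -0.85 and -0.85 in OSK-A549-Colony and -1.19, -1.18 and -1.31 in OSK-A549-SN. The 3 groups of ABCB1 values did not overlap, in the order parental A549, OSK-A549-Colony, OSK-A549-SN. Its difference in OSK-A549-Colony was -0.66 (adjusted p = 0.0481) and did not reach 2-fold. The second ABCB1 probe gave -0.98 in OSK-A549-Colony and -1.29 for OSK-A549-SN (adjusted p = 0.0219 and 0.0277). With OSK-A549-Colony set against OSK-A549-SN, none of the 30 tested was called by limma, and 10 had an unadjusted p under 0.05, against 19.5% of all probes. The difference of ABCB1 there was 0.37 (adjusted p = 0.124). The call of ABCC6 in OSK-A549-SN was lost without any 1 of the 6 arrays, at 0.0749, 0.121 and 0.0518 without parental A549 replicate 1, 2 or 3 and 0.167, 0.161 and 0.0934 without OSK-A549-SN replicate 1, 2 or 3. That of ABCB1 held only without parental A549 replicate 3 (0.0481), and was lost at 0.0876 and 0.165 without parental A549 replicate 1 or 2 and at 0.177, 0.181 and 0.0986 without OSK-A549-SN replicate 1, 2 or 3. Both calls were also lost with no filter on dim probes (0.0624 for ABCC6 and 0.0719 for ABCB1), with replicate number as a block (0.175 each) and with slide as a block (0.0985 and 0.105). With normexp ABCB1 was at -0.72, under 2-fold. With all 9 arrays in 1 fit, 2 genes of subfamily B and 1 of subfamily G were called in OSK-A549-SN.

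Among 22 ligands, partners and processing enzymes of CD44, 18 were tested for OSK-A549-Colony against parental A549, and 1 was called higher and 0 lower, against 2.08% and 1.81% of named genes. It was HAS3, an enzyme that makes hyaluronan, the ligand of CD44. HAS3 read -2.10, -1.997 and -1.41 in parental A549, 0.40, 0.19 and 0.39 in OSK-A549-Colony and 0.09, -0.46 and -0.35 in OSK-A549-SN. Parental arrays were the lowest, with no overlap with either transduced group. HAS3 was 4.48-fold higher in OSK-A549-Colony (log2 difference 2.16, adjusted p = 0.0156 from limma, standard error 0.21) and 3.02-fold higher in OSK-A549-SN (1.60, adjusted p = 0.0462, standard error 0.25). A dimmer HAS3 probe, A_33_P3402454, gave -0.01 and 0.33 (adjusted p = 0.968 and 0.343), so the probes of HAS3 disagreed. The HAS3 call in OSK-A549-Colony was lost without parental A549 replicate 2 (0.065) or OSK-A549-Colony replicate 1, 2 or 3 (0.0597, 0.0947 and 0.0709). That in OSK-A549-SN was lost without any 1 array, at 0.0855, 0.165 and 0.0544 without parental A549 replicate 1, 2 or 3 and 0.164, 0.161 and 0.0941 without OSK-A549-SN replicate 1, 2 or 3. Replicate number as a block ended both calls (0.118 and 0.175), and no filter (0.0661) or slide as a block (0.099) ended that in OSK-A549-SN. Osteopontin (SPP1), another CD44 ligand, differed by 0.81 in OSK-A549-Colony (adjusted p = 0.0263), HYAL3 by 0.78 (adjusted p = 0.0323) and merlin (NF2) by 0.76 (adjusted p = 0.0231), all under 2-fold. The adjusted p of SPP1 and HYAL3 reached 0.123 and 0.138 over 13 alternatives and stayed under 0.05 in 7 and 6. At an unadjusted p under 0.05, 7 of 18 passed, against 30.1% of all probes. The median of the list was 0.12 for OSK-A549-Colony and 0.36 for OSK-A549-SN, beside -0.03 and 0.08 over all probes. For OSK-A549-SN 20 were tested, with 1 called higher and 0 lower, against 0.757% and 0.876% of named genes. With no fold limit 2 passed in OSK-A549-SN, HAS3 and NF2. The adjusted p of NF2 from limma was there 0.00685 to 0.2 over 14 alternatives and under 0.05 in 5, with differences of 0.68 to 0.83. The promoter of HAS3 is shown, since HAS3 had the largest difference among the genes tied to a member and measured on all arrays.
HAS3, chr16:69107290-69107589, plus strand: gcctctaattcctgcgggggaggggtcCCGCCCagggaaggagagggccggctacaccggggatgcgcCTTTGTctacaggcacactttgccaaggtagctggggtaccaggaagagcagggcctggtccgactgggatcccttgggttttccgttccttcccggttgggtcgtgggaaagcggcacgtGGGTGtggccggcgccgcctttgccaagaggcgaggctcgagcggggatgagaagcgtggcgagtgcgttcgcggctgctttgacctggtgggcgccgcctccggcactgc
Capitals mark the same motifs as in NT5E. The matches were 1 GC box at 223 bases before the start, 1 ACAAAG, on the opposite strand, at 182, and 1 CACCC box at 61.

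Of 16 genes of extracellular adenosine, the pathway of NT5E, 12 were tested in each comparison with parental A549, where calls up and down made up 2.08% and 1.81% of named genes for OSK-A549-Colony and 0.757% and 0.876% for OSK-A549-SN. In OSK-A549-Colony 0 were called higher and 1 lower, the adenosine receptor ADORA2A, which was not well above background there and on only 2 parental arrays, for a difference of at least 1.38-fold (adjusted p = 0.0343 from limma). In OSK-A549-SN 0 were called higher and 1 lower, ENTPD2, an ectonucleotidase (-1.25, adjusted p = 0.0308 from limma, standard error 0.14). ENTPD2 read 1.09, 0.90 and 0.71 in parental A549, 0.12, -0.19 and -0.14 in OSK-A549-Colony and -0.35 on all 3 arrays of OSK-A549-SN. The groups did not overlap, and the difference of OSK-A549-Colony was -0.97 (adjusted p = 0.0286), just under 2-fold. That adjusted p was under 0.05 in 7 of 13 alternatives. The ADORA2A call was lost without parental A549 replicate 2 (0.104) or OSK-A549-Colony replicate 1, 2 or 3 (0.0813, 0.131 and 0.115). The ENTPD2 call was lost without parental A549 replicate 1 or 2 (0.064 and 0.121) or OSK-A549-SN replicate 1, 2 or 3 (0.132, 0.141 and 0.0634). With normexp ADORA2A differed by -0.16 (adjusted p = 0.354), and its call was also lost with no filter (0.0613) and with replicate number as a block (0.138). That of ENTPD2 was lost with replicate number (0.173) or slide (0.0667) as a block. At an unadjusted p under 0.05, 4 and 3 of the 12 passed, against 30.1% and 21.6% of all probes, and 0 to 2 were called in OSK-A549-Colony without 1 array. The list's medians were -0.19 for OSK-A549-Colony and 0.04 for OSK-A549-SN, beside -0.03 and 0.08 over all probes.

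Of 23 other stem cell surface antigens, 16 were tested for OSK-A549-Colony against parental A549, with 13 higher, 3 lower and a median of 0.52, beside -0.03 over all probes. By limma 1 was called higher and 0 lower, against 2.08% and 1.81% of named genes. It was ICAM1, a leukocyte adhesion receptor, at background on every parental array and well above it on only 2 OSK-A549-Colony arrays, at least 1.12-fold higher (adjusted p = 0.0308). MCAM (0.94, adjusted p = 0.0394) and the receptor MET (0.89, adjusted p = 0.0293) passed without the fold limit. Their adjusted p reached 0.131 and 0.128 over 13 alternatives and stayed under 0.05 in 6 and 7 of them. At an unadjusted p under 0.05, 9 of 16 passed, against 30.1% of all probes. With quantile normalization 3 were called, and 0 to 2 without 1 array. In OSK-A549-SN 0 of 17 were called in either direction, where 0.757% and 0.876% of named genes were called higher and lower. Of these 17, 6 had an unadjusted p under 0.05 in OSK-A549-SN, against 21.6% of all probes, and the median was 0.41, beside 0.08. With all 9 arrays in 1 fit 1 was called there. L1CAM was at background on all 3 parental arrays and was at least 1.72-fold higher in OSK-A549-SN (adjusted p = 0.0705). It read -2.88, -3.79 and -5.17 in OSK-A549-Colony, not well above background on every array, and -2.32, -3.44 and -4.50 in OSK-A549-SN. The L1CAM values of the transduced groups thus overlapped. The ICAM1 call was lost without parental A549 replicate 2 (0.0891) or OSK-A549-Colony replicate 1, 2 or 3 (0.0816, 0.129 and 0.0709). With normexp ICAM1 differed by 0.22 (adjusted p = 0.133), and the call was also lost with no filter (0.0533) and with replicate number as a block (0.129). Set against OSK-A549-SN, where ICAM1 was at background on all 3 arrays, OSK-A549-Colony was at least 1.49-fold higher (adjusted p = 0.105).

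**Figure D5:**
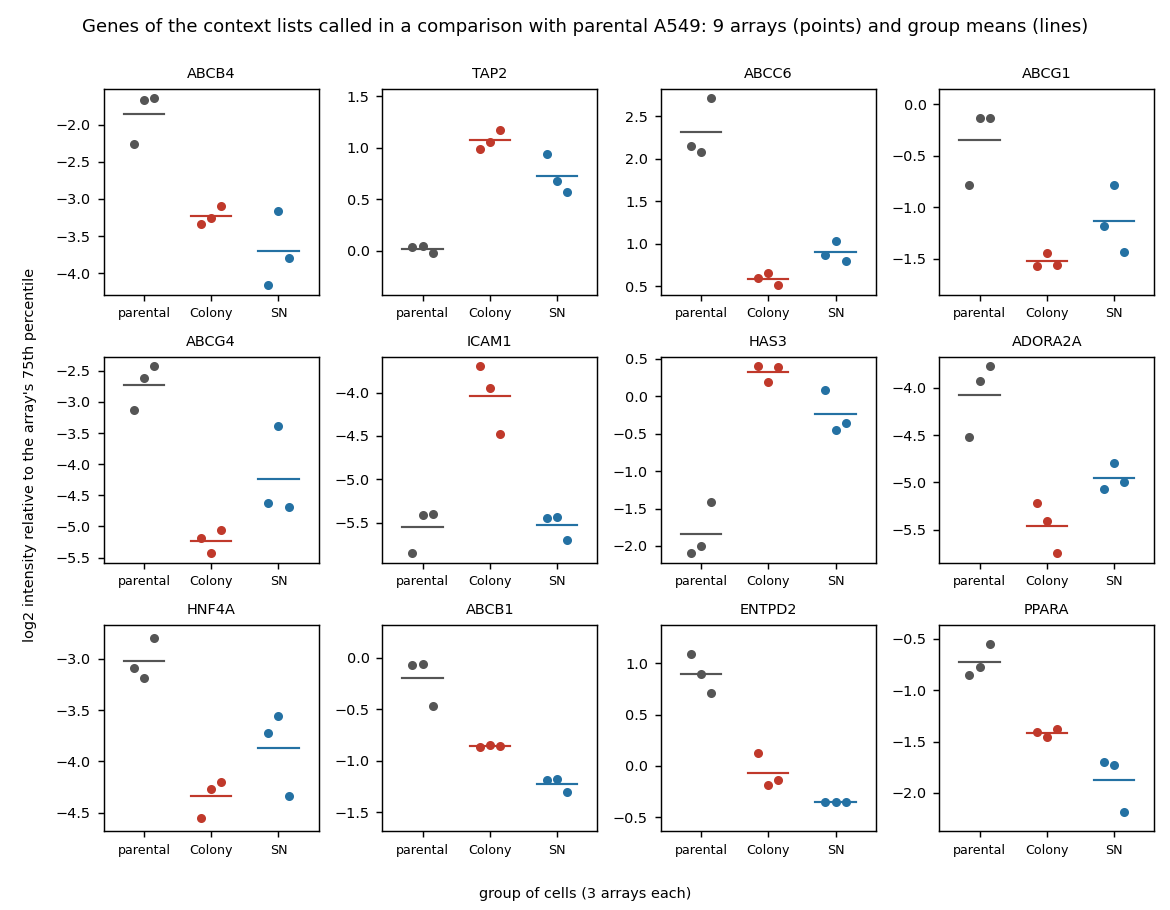
Log2 intensity relative to the array's 75th percentile of the 12 ABC and related genes called against parental A549, without the marker HBB, with 1 point per array (3 per group) and a line at each group mean, every panel on its own axis. HAS3 and TAP2 are lowest in parental A549, ICAM1 is highest in OSK-A549-Colony, and the other 9 are highest in parental A549.

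Of 17 genes of glutathione and conjugation, 15 were tested against parental A549, and 0 were called in either direction for either transduced group. Calls up and down made up 2.08% and 1.81% of named genes for OSK-A549-Colony and 0.757% and 0.876% for OSK-A549-SN. In these comparisons 5 and 4 genes of the list had an unadjusted p under 0.05, against 30.1% and 21.6% of all probes. The medians were -0.11 and -0.03, beside -0.03 and 0.08 over all probes, and the largest difference was that of GSTM3 in both (-0.95 and -0.96, adjusted p = 0.0634 and 0.121 from limma). The adjusted p of GSTM3 was under 0.05 in 6 of 13 and 2 of 14 alternatives (0.0226 to 0.181 and 0.0382 to 0.283), and up to 1 gene of the list was called in OSK-A549-Colony without 1 array. Of 12 genes of platinum and copper transport, 10 were tested and 0 were called, with 3 and 2 at an unadjusted p under 0.05 and medians of 0.04 and 0.03. Of 13 transcription regulators of pumps, 10 and 11 were tested, with 0 called higher and 1 lower in each comparison, where 1.81% and 0.876% of named genes were called lower, and 3 and 4 had an unadjusted p under 0.05. HNF4A, a hepatic nuclear receptor, was well above background on 2 of 3 OSK-A549-Colony arrays and lower there by at least 2.42-fold (adjusted p = 0.0217). PPARA, a fatty acid sensing receptor, was lower in OSK-A549-SN (-1.14, adjusted p = 0.0496, standard error 0.19) and differed by -0.69 in OSK-A549-Colony (adjusted p = 0.0325). The latter adjusted p was 0.0123 to 0.137 over 13 alternatives and under 0.05 in 7 of them. The dimmer PPARA probe gave -0.36 in OSK-A549-SN (adjusted p = 0.513) and -0.62 in OSK-A549-Colony (adjusted p = 0.215). The HNF4A call was lost without parental A549 replicate 2 (0.067) or OSK-A549-Colony replicate 1, 2 or 3 (0.0666, 0.104 and 0.0785), with replicate number as a block (0.118) and with normexp, at -0.37. The PPARA call was lost without any 1 array, at 0.0826, 0.165 and 0.0829 without parental A549 replicate 1, 2 or 3 and 0.159, 0.173 and 0.0783 without OSK-A549-SN replicate 1, 2 or 3. It was also lost with quantile normalization (0.0634), no filter (0.0736), replicate number (0.196) or slide (0.0848) as a block, and normexp, at -0.64. The medians of the list were -0.10 and -0.14.

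Setting OSK-A549-Colony against OSK-A549-SN, limma called no gene of the 6 lists of related genes, with an unadjusted p under 0.05 for 3 of 17 antigens, 3 of 20 genes tied to CD44, 3 of 11 of adenosine, 1 of 15 of glutathione, 3 of 10 of platinum and copper and 3 of 11 regulators, against 19.5% of all probes. Among genes well above background on all 6 arrays, the largest difference of each list was 0.83 for MCAM (adjusted p = 0.11), 0.57 for HAS3 (adjusted p = 0.18), -0.48 for the ectoenzyme CD38 (adjusted p = 0.11), 0.34 for UGT1A6 (adjusted p = 0.299), -0.41 for the copper transporter SLC31A2 (adjusted p = 0.194) and -0.63 for the hypoxia regulator EPAS1 (adjusted p = 0.105).

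Markers of the cell line were measured in every group. All 6 epithelial markers and all 8 genes of high NRF2 activity were well above background on all 9 arrays. The summed level of the epithelial markers, in multiples of the 75th percentile, was 1589, 1608 and 1790 in parental A549, 1486, 1563 and 1581 in OSK-A549-Colony and 1715, 1847 and 1506 in OSK-A549-SN, with KRT18 the brightest. That of the NRF2 genes, led by AKR1B10, was 2454, 2318 and 2614, then 2253, 2321 and 2260, then 2080, 2167 and 1928 in the same order. The OSK-A549-SN sums of the NRF2 genes were below all others. So were the OSK-A549-SN levels of ABCC3 probe A_23_P207507, but not those of ABCC3 probe A_33_P3298024 or of ABCC2. The part of NRF2 activity in the values of these pumps was not tested. None of the 6 epithelial or 8 NRF2 genes was called, and 4 of each had an unadjusted p under 0.05 between OSK-A549-Colony and parental A549, where 30.1% of all probes did and 3.70% were called. E-cadherin (CDH1) was at -0.996 there (adjusted p = 0.0319 from limma, standard error 0.17), KRT19 at 1.18 (adjusted p = 0.0625, standard error 0.29) and NQO1 at 0.55 (adjusted p = 0.0462). The adjusted p of CDH1 and NQO1 reached 0.13 and 0.175 over 13 alternatives and stayed under 0.05 in 7 and 6. Of the 6 epithelial genes 2 were higher and 4 lower there. With normexp, with quantile normalization and with all 9 arrays in 1 fit, 1 of them was called in that comparison. CDH1 read 3.26, 3.26 and 3.75 in parental A549, above all arrays of both transduced groups. It read 2.44, 2.49 and 2.35 in OSK-A549-Colony and 2.44, 2.71 and 2.62 in OSK-A549-SN. The 8 NRF2 genes split 3 up, 5 down for OSK-A549-Colony against parental A549, and 1 up, 7 down for OSK-A549-SN. With OSK-A549-Colony set against OSK-A549-SN, KRT19 differed by 1.22 (adjusted p = 0.134), and 1 epithelial gene was called with normexp.

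Of 7 fibroblast markers, COL1A2, COL3A1, DCN, LUM, PDGFRA and PDGFRB were not well above background on any array, COL1A1 was the brightest, and the sum was 0.103 to 0.168 on all 9 arrays. Of 5 endothelial markers, VWF and CDH5 were well above background on all arrays, and the sum was 0.202 to 0.453, with CDH5 the brightest. Of 5 blood markers, 3 (PTPRC, CD14 and HBB) were well above background on all arrays, with a sum of 2.92, 3.72 and 7.94 in parental A549, 2.78 to 3.21 in OSK-A549-Colony and 3.64 to 4.52 in OSK-A549-SN, led by CD14. Against parental A549, HBB was called higher in OSK-A549-Colony (1.75, adjusted p = 0.0434 from limma, standard error 0.36), where 2.08% of named genes were called higher and 1.81% lower. No other marker of these 3 lists was called in any comparison, though up to 1 endothelial marker was in OSK-A549-SN without 1 array. At an unadjusted p under 0.05, 2 of 4 blood, 1 of 2 endothelial and 0 of 1 fibroblast markers passed for OSK-A549-Colony against parental A549, against 30.1% of all probes. With OSK-A549-Colony set against OSK-A549-SN, 3 of 5 blood, 0 of 3 endothelial and 0 of 1 fibroblast markers did, against 19.5%. The HBB call was lost without parental A549 replicate 2 or 3 (0.109 and 0.0742) or OSK-A549-Colony replicate 1, 2 or 3 (0.118, 0.138 and 0.132), with no filter (0.0737), with replicate number as a block (0.118) and with normexp, at 0.86. A part of these markers in the members' values was not tested.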

How the data were processed

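RNA of OSK-A549-Colony, OSK-A549-SN and parental A549 was hybridised to 9 single-colour arrays. The authors deposited the intensity of each spot from Agilent Feature Extraction 11.5.1.1, background-subtracted and not scaled between arrays, and a table of log2 values, which the authors had shifted by a constant per array. From the deposited intensity, log2 values were averaged over the spots of each of 50599 probes, without control and outlier spots, and the array's 75th percentile was subtracted. No spot was saturated. Detected means that at least 0.5 of a probe's spots were positive, significant and well above background, which held for 25809 to 29317 probes per array. RefSeq accessions named 30275 probes.

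Groups were compared with limma 3.58.1 in R 4.3.3 on the 6 arrays of a comparison, over probes detected on at least 1 of them, with Benjamini-Hochberg adjustment over all of these. Called means an adjusted p under 0.05 together with a more than 2-fold difference. The F test used all 9 arrays. An exact permutation test of 3 arrays against 3 cannot go below p = 0.1, so groups without overlap are a description. Of several probes of a gene, the one with the highest mean was counted. Bounds ("at least N-fold") set the brighter group's mean against that of the dimmer arrays, each raised to its lowest value well above background. The number of arrays limits the precision.

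The members and the gene lists were chosen with earlier results of these data known. Every member and list gene called is named, with those of largest difference in a list. Alternatives were normexp background correction (offset 50), on median brightness since mean brightness is not among the columns used here, quantile normalization, no filter or a stricter one, the deposited table, all 9 arrays in 1 fit, replicate or slide blocks, unadjusted p, no fold limit, Dunnett's and Tukey's tests (multcomp 1.4.28 and R) and leaving out each array. The steps that make a call were also run on simulated data. That run did not use these arrays and its outcome is not given, so no conclusion on the calls reported here is drawn from it.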

Additional observations from a re-analysis of the deposited data

How the results depend on the processing

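Over the alternatives, both ABCC3 probes and NT5E A_24_P316430 kept their direction in both comparisons with parental A549. Counted by the highest-mean probe, limma called 0 member genes under each alternative. Tukey's test, unadjusted across genes, put 1 (ABCB6) past 0.05 between the transduced groups, and by probe CD44 A_21_P0000152 too, and Dunnett's put 0 past it against parental A549. By probe, Dunnett's test put ABCC3 A_33_P3298024 and NT5E A_24_P316430 past 0.05 in both transduced groups. Counted by any probe with no fold limit, 1 member gene passed for OSK-A549-Colony against parental A549, and by the F test 2 passed. These counts by any probe were chosen after seeing the data. Dim probes are limited by signal over background, as PROM1 was.

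Probes called for OSK-A549-Colony against parental A549 numbered 1143, and 333 with normexp, 583 with no filter, 2038 with unadjusted p, 2783 with no fold limit and 0 to 1362 without 1 array. They numbered 1 without parental A549 replicate 2, and 141, 0 and 85 without OSK-A549-Colony replicate 1, 2 or 3. With OSK-A549-Colony set against OSK-A549-SN they numbered 0, and 32 with normexp, 139 with the stricter filter, 9 with all 9 arrays in 1 fit and 662 with unadjusted p. For OSK-A549-SN against parental A549 they numbered 498, and 232 with normexp, 215 with no filter, 980 with the stricter filter, 1085 with all 9 arrays, 187 with slide as a block, 1880 with unadjusted p and 0 to 190 without 1 array. They numbered 44, 2 and 158 without parental A549 replicate 1, 2 or 3, and 0, 0 and 190 without OSK-A549-SN replicate 1, 2 or 3. The F test passed 3778 probes, and 1978 with no filter, 5820 with the stricter filter and 986 to 3980 without 1 array. The lowest was without parental A549 replicate 2. The cause was not tested.

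With replicate number as a block, 0 probes were called in any of the 3 comparisons, and the F test passed 1194. With OSK-A549-Colony set against OSK-A549-SN, the adjusted p of the 12 member probes was then 0.235 to 0.772. The labels do not say whether the numbers pair the samples of the transduced groups with the parental ones. Same-numbered arrays of these groups correlated at -0.20 to 0.15 in their deviations from the group means, which cannot settle it. With OSK-A549-Colony set against OSK-A549-SN these values were 0.24, 0.07 and 0.14, and each array matched its own number best.

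The sign turned only for differences that passed no test. For OSK-A549-Colony against parental A549, NT5E A_24_P354715 gave 0.043 with normexp and -0.22 to 0.15 without 1 array, CD44 A_21_P0000152 gave 0.067 with quantile normalization, and without 1 array CD44 A_33_P3294509 gave -0.024 to 0.26 and ABCC1 -0.071 to 0.093. With OSK-A549-Colony set against OSK-A549-SN, CD24 gave 0.0030 with quantile normalization and -0.22 to 0.067 without 1 array, ANPEP -0.22 with slide as a block and -0.22 to 0.85 without 1 array, and L1CAM, with 1 OSK-A549-Colony array not well above background, -1.07 to 0.085. Taken by number, L1CAM differed by -0.557, -0.35 and -0.668, and with replicate number as a block by -0.53 (adjusted p = 0.234 from limma). For OSK-A549-SN against parental A549, CD44 A_21_P0000152 gave -0.025 with normexp and ABCC1 -0.032 with quantile normalization. With slide as a block ABCG2 gave 0.011 and ABCC2 0.0045. Without 1 array the ranges were -0.014 to 0.15 for ABCC1, -0.17 to 0.011 for ABCG2, -0.19 to 0.0045 for ABCC2 and -0.14 to 0.073 for ALCAM. The cause was not tested.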

Other observations

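EPCAM, an epithelial adhesion molecule, was spread widely within each group. In order of replicate number it read 3.15, 2.43 and 1.72 in parental A549, 3.06, 1.84 and 1.27 in OSK-A549-Colony and 2.57, 1.59 and 0.98 in OSK-A549-SN. The 3 groups overlapped, and by limma its log2 difference from parental A549 was -0.38 for OSK-A549-Colony (adjusted p = 0.677, standard error 0.57) and -0.72 for OSK-A549-SN (adjusted p = 0.461, standard error 0.52). Without 1 array these were -0.88 to 0.018, so the sign turned, and -1.15 to -0.35. Taken by number, OSK-A549-Colony differed from parental A549 by -0.092, -0.59 and -0.45 and from OSK-A549-SN by 0.49, 0.25 and 0.29. OSK-A549-SN differed from parental A549 by -0.58, -0.83 and -0.74. Whether the numbers pair these samples with the parental ones is not known, and no difference is read from this gene. The gene was singled out after its values were seen, and the source of the spread was not tested.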
